A study of Mus musculus with 29 samples.

Results

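Irf1 and Irf8 encode interferon regulatory factors, and their chromatin was followed here in mouse macrophage-like cells through lipopolysaccharide (LPS) and flavopiridol treatment. The members are all peaks and chromatin state segments that meet 2 windows of genome build mm9. The Irf1 window is 40 kb on chromosome 11 (53570000 to 53610000), with the gene near 53583000 to 53592000. The Irf8 window is 150 kb on chromosome 8 (123200000 to 123350000), with the gene near 123260000 to 123281000. They held 340 of the 1190714 peaks in 26 lists, 97 at Irf1 and 243 at Irf8, and 702 of the 2070063 segments in 4 segmentations.

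All samples are RAW264.7, a macrophage line transformed by the Abelson leukaemia virus, and no expression values were analysed here to check the line against macrophage markers. Cells were untreated, stimulated with LPS (100 ng/ml) for 1 h or 4 h, treated with flavopiridol for 1 h, or treated with flavopiridol for 1 h and then with LPS for 4 h. Chromatin immunoprecipitation and sequencing mapped 7 histone marks without flavopiridol at each time, H3K4me1 and H3K36me2 after flavopiridol, and the transcription factor PU.1 in untreated cells. Each mark and condition has 1 library, so the spread between cultures is unknown, every comparison sets one library beside another, and no test was possible.

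Interferon regulatory factors bind interferon-stimulated response elements and regulate innate immune genes. Irf1 is a classic early target of NF-kB and of interferon-gamma, and its product activates antiviral and antigen-presentation genes. Irf8 is a lineage factor of monocytes and dendritic cells, binds DNA largely together with PU.1 at composite elements, and is known to be controlled by distal enhancers downstream of the gene. LPS is a bacterial cell wall component sensed by Toll-like receptor 4, and flavopiridol inhibits the kinase CDK9 and with it transcription elongation. In RefSeq (GRCm38.p6), the nearest protein-coding neighbours are Il5 and Slc22a5 for Irf1, and Cox4i1 and Foxf1 for Irf8.

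NF-kB is known to act at promoter sites and the TATA box to place the start of transcription, so the 250 bases before the first annotated start of each gene are shown (RefSeq, GRCm38.p6, plus strand, 5′ to 3′), with matches to the searched motifs in capitals.
Irf1: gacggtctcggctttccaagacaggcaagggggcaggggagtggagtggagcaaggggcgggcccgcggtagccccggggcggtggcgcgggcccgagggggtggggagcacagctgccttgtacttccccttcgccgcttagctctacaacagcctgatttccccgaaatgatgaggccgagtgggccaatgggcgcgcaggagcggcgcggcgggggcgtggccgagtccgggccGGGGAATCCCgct
Irf8: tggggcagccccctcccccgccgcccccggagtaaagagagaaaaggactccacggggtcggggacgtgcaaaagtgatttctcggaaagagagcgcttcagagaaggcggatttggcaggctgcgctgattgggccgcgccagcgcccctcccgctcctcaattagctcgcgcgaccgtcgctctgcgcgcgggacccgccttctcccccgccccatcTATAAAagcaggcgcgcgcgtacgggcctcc
The windows searched ran from 250 bases before to 50 bases after each start, on both strands, and no match overlapped one of another motif. In Irf1 the capitals mark an NF-kB consensus match, GGGGAATCCC, at −13 to −4 from the start. In Irf8 they mark TATAAA at −31 to −26. The NF-kB consensus was present in 4.51% of the 32851 promoters of the table and TATAAA in 13.6%. Irf1 had no TATAAA and Irf8 no NF-kB consensus match in these windows. The core of the interferon-stimulated response element, searched as GAAA, any 2 bases, GAAA, and the PU.1 core, GAGGAA, were in neither window, and were present in 3.44% and 28.3% of all promoters. Both windows were rich in CpG, with 32 at Irf1 and 38 at Irf8 against a median of 7 over all promoters. Each gene has a second annotated start, and its window held none of the 4 motifs. A match is a description of letters, and the absence of one says nothing about the factor.

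The LPS time course asks how marks of promoters, enhancers and transcribed bodies were laid out before and after stimulation. Both loci were densely marked in untreated cells, and Irf1 differed most from its untreated layout at 4 h of LPS. Irf1 had wider H3K4me3, H3K27ac and H3K79me2 domains over the gene at 4 h than in untreated cells. At Irf8 the promoter and enhancer domains of 4 h lay near their untreated extent, after narrower H3K27ac at 1 h. H3K27me3, the Polycomb mark, met neither gene interval, and lay on both sides of Irf8 and only upstream of Irf1 within the windows.

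**Figure D1:**
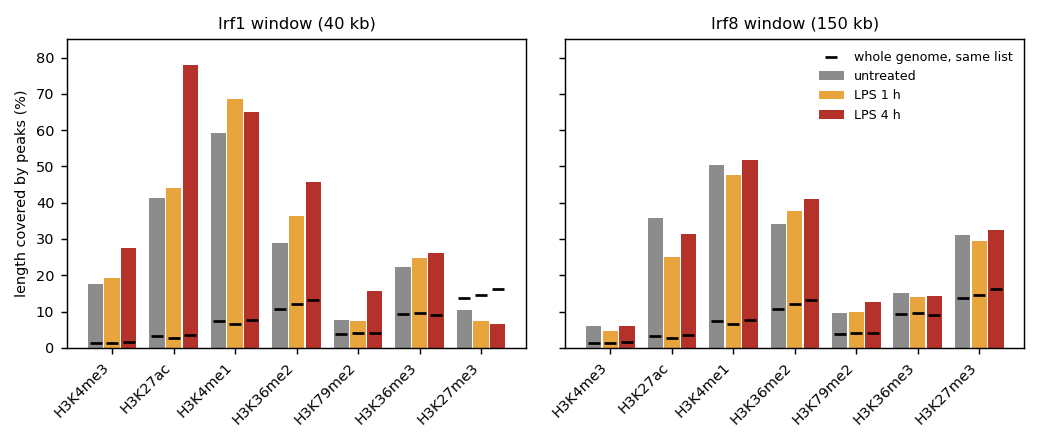
Share of each window covered by peaks of each mark (bars, percent of length) in untreated cells and at 1 h and 4 h of LPS, with black dashes for the share of the whole genome covered by the same list. H3K27ac covered 78.0% of the Irf1 window at 4 h, and H3K27me3 lay below the genome dashes at Irf1 and above them at Irf8.

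At Irf1, H3K27ac, a mark of active promoters and enhancers, covered 41.3% (untreated), 44.1% (LPS 1 h) and 78.0% (LPS 4 h) of the window. The length at 4 h was 1.89 times that of untreated cells, while over the genome the ratio was 1.09. H3K4me3, the promoter mark, covered 17.6%, 19.2% and 27.6% of the window in the same order. Both were thus widest at 4 h and close to their untreated extent at 1 h. H3K79me2, found over the early part of transcribed genes, covered 7.64%, 7.33% and 15.8%, and H3K36me3, found over transcribed bodies, 22.1%, 24.9% and 26.1%. H3K4me1, a mark of enhancers and promoter flanks, covered 59.2%, 68.6% and 65.0%, and H3K36me2, a mark of broad domains, 29.0%, 36.3% and 45.6%. H3K27me3 covered 10.5%, 7.35% and 6.53%, and was the one mark to cover less at 4 h than in untreated cells. Of the 7 marks, 5 covered more of the window at 1 h than in untreated cells and 6 did at 4 h. Over the genome, all but H3K36me3 covered more at 4 h, with ratios of 1.04 to 1.24 and 0.976 for H3K36me3. All but H3K4me3, H3K27ac and H3K4me1 covered more of the genome at 1 h. In the Irf1 window at 1 h, H3K27me3 and H3K79me2 covered less. With peaks limited to a deposited −log10 q of at least 5, H3K4me3 covered 10.1 percentage points more at 4 h than in untreated cells, H3K27ac 54.5 and H3K79me2 15.8. The H3K79me2 peak passed the limit at 4 h and not in untreated cells. At 4 h H3K4me1 differed by −0.605 points under it. H3K36me3 differed by −22.1, as its single peak passed in untreated cells (22.1% of the window) and not at 4 h. No H3K36me2 or H3K27me3 peak in the window passed in either list, so these 2 marks could not be compared. Only H3K4me3, H3K27ac and H3K79me2 covered more under the limit.

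The H3K4me3 peak over the Irf1 start was 3034 bp wide in untreated cells (53582545 to 53585578), 2840 bp after 1 h (53582815 to 53585654) and 7204 bp after 4 h (53582137 to 53589340). At 4 h it reached 6.34 kb into the gene and was number 230 by width among the 22231 H3K4me3 peaks of that list. This is 2.37 times the untreated width, and 4.29% of all untreated H3K4me3 peaks were met at 4 h by a peak at least 2 times as wide. The peaks upstream, at −6.85 kb from the gene start, and downstream, at 24.5 kb, stayed separate, with 2400 and 1454 bp at 4 h against 2312 and 1684 bp in untreated cells. The added width lay mostly on the gene side of the start.

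H3K27ac met the Irf1 gene interval in 2 peaks in untreated cells, 3369 bp at the promoter (53582291 to 53585659) and 2677 bp inside the gene (53587017 to 53589693). At 1 h both were still separate, with 3271 bp (53582351 to 53585621) and 2176 bp (53587491 to 53589666). At 4 h a single peak of 18778 bp (53581792 to 53600569) took in both and the 4437 bp peak of untreated cells at 13.3 kb. That peak covered the whole gene interval and was number 247 by width of 34788. It was 5.57 times as wide as the untreated promoter peak and 7.01 times as wide as the one in the gene, and 11.0% of all untreated H3K27ac peaks were met at 4 h by a peak at least 2 times as wide. Upstream, a peak of 8849 bp at 4 h stood where the untreated peak had 3148 bp.

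H3K79me2 formed 1 peak in the Irf1 gene: 3058 bp in untreated cells (53584114 to 53587171), 2932 bp after 1 h (53583636 to 53586567) and 6308 bp after 4 h (53583482 to 53589789). The width at 4 h was 2.06 times that of untreated cells, a ratio of at least 2 that 21.3% of all untreated H3K79me2 peaks also had at 4 h. H3K36me3 was a single peak of 8855 bp in untreated cells (53584959 to 53593813), 9944 bp after 1 h (53585064 to 53595007) and 10422 bp after 4 h (53584390 to 53594811). Its extent thus differed less over time than that of H3K79me2.

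H3K4me1 covered less of the Irf1 gene at 4 h than before LPS and more of the upstream flank. In the gene interval it covered 76.8% (untreated), 76.4% (LPS 1 h) and 43.9% (LPS 4 h), and upstream of the gene 57.7%, 85.9% and 86.5%. The widest peak was 8085 bp over the promoter in untreated cells (53581832 to 53589916), 18048 bp after 1 h (53571833 to 53589880) and 11487 bp after 4 h (53571758 to 53583244). At 1 h the promoter peak and the upstream ones were joined, 2.23 times the untreated width. At least 2 times as wide at 1 h was true of 4.13% of all untreated H3K4me1 peaks. No H3K4me1 peak of the window at 1 h reached a −log10 q of 5, and under that limit 1 h minus untreated was −9.69 percentage points. At 4 h there was no H3K4me1 peak from 0.244 to 3.74 kb into the gene, inside the widened H3K4me3.

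**Figure D2:**
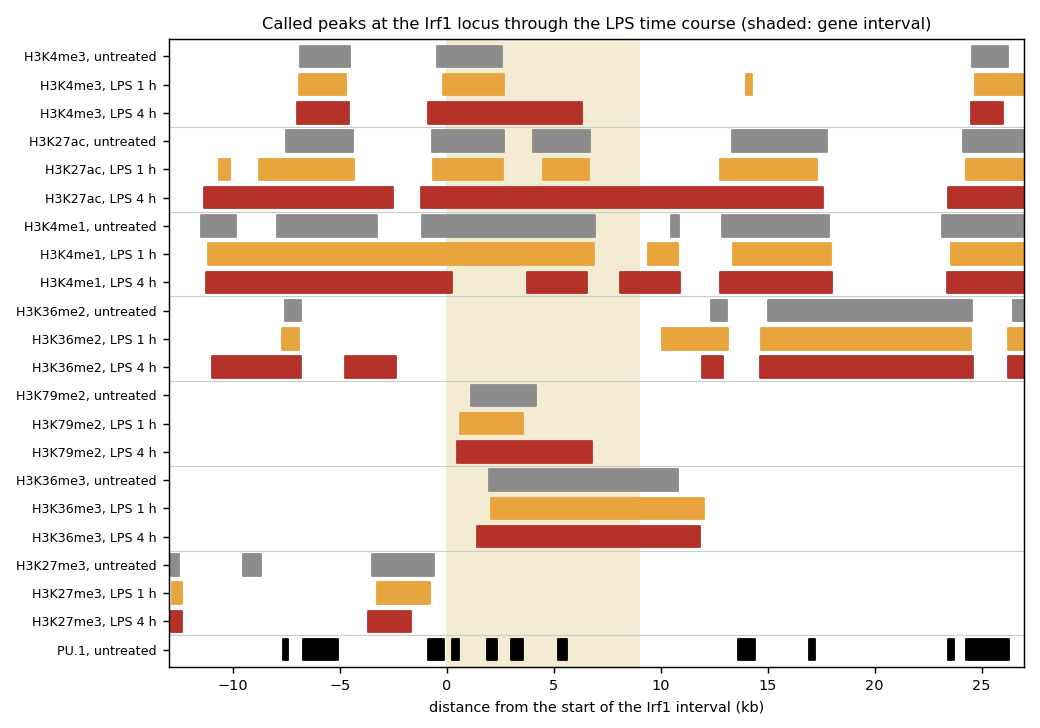
Extent of each called peak (bars) at the Irf1 locus against distance from the start of the gene interval in kb, by mark and time of LPS, with PU.1 of untreated cells in the bottom row. At 4 h the H3K27ac peaks over the gene and 13.3 kb downstream were 1 peak of 18778 bp, and H3K4me3 reached 6.34 kb.

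H3K36me2 was absent from the Irf1 gene interval in untreated cells and at both LPS times. Its widest peak lay downstream of the gene, with 9506 bp in untreated cells (53598033 to 53607538), 9845 bp after 1 h (53597664 to 53607508) and 9930 bp after 4 h (53597658 to 53607587). Upstream, a peak of 4150 bp at 4 h (53572019 to 53576168) stood where untreated cells had one of 771 bp, and a second 4 h peak of 2384 bp (53578247 to 53580630) had no untreated counterpart. Of all untreated H3K36me2 peaks, 46.8% were met at 4 h by a peak at least 2 times as wide. Of all H3K36me2 peaks of 4 h, 25.2% had no untreated counterpart. H3K27me3 lay just upstream of the promoter, with 2877 bp in untreated cells (53579506 to 53582382), 2468 bp after 1 h and 2006 bp after 4 h. The widest H3K27me3 peak was 6563 bp in untreated cells (53563931 to 53570493), 2468 bp after 1 h (53579721 to 53582188) and 5877 bp after 4 h (53564730 to 53570606), and the first and last of these entered the window from its left edge. The upstream flank of Irf1 thus had less H3K27me3 and more H3K27ac, H3K4me1 and H3K36me2 at 4 h than before LPS.

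Whole peaks gained or lost at Irf1 were counted next. A gained peak has no overlap of 1 bp with the untreated list and a lost one none with the LPS list. At 1 h, 2 of 22 peaks were gained, where 13.2% of all peaks of the 7 marks were, and 1 of 23 was lost, where 11.7% were. The gained ones were an H3K4me3 peak of 290 bp at 14.0 kb and an H3K27ac peak of 508 bp at −10.7 kb. At 4 h, 1 of 20 was gained (20.1% of all peaks) and 1 of 23 lost (8.75%). These were the H3K36me2 peak of 2384 bp named above and an H3K27me3 peak of 831 bp (53573461 to 53574291), which was also the one lost at 1 h. The rule was also changed so that at least 50% of a peak had to be covered to count as kept. The gained peaks were then 4 of 22 at 1 h and 6 of 20 at 4 h, so the count depends on the rule. The share over all peaks under the 50% rule was not computed.

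At Irf8 the covered length at 4 h was 0.878 to 1.32 times that of untreated cells over the 7 marks, against 0.622 to 2.06 times at Irf1. H3K27ac covered 35.9% (untreated), 25.1% (LPS 1 h) and 31.5% (LPS 4 h), and H3K4me3 6.04%, 4.55% and 6.01%. At 1 h the H3K27ac length was 0.699 times that of untreated cells, where the genome ratio was 0.874, and at 4 h it was 0.878 times, where the genome ratio was 1.09. H3K4me1 covered 50.5%, 47.8% and 51.8%, H3K36me2 34.2%, 37.8% and 41.2%, and H3K79me2 9.54%, 9.95% and 12.5%. H3K36me3 covered 15.1%, 14.0% and 14.4%, and H3K27me3 31.0%, 29.5% and 32.4%. Of the 7 marks, 2 covered more at 1 h than in untreated cells, namely H3K36me2 and H3K79me2, and 4 did at 4 h. Over the genome, H3K36me3 and H3K27me3 also covered more at 1 h, and all marks but H3K36me3 did at 4 h. With peaks limited to a −log10 q of at least 5, H3K36me2 at Irf8 covered 33.7% at 1 h and 37.4% at 4 h, against 3.62% in untreated cells, a difference of 30.0 and 33.8 percentage points. H3K4me1 then differed by −11.0 points at 1 h, and H3K27me3 by −16.6 at 1 h and −13.0 at 4 h, so the similarity to untreated cells at Irf8 holds for all called peaks and not for these marks under that limit. With H3K27ac and H3K4me1 lists covering less of the genome at 1 h, their part in the lower values at Irf8 was not tested.

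The promoter peak of H3K4me3 at Irf8 was 3999 bp in untreated cells (123259619 to 123263617), 3470 bp after 1 h (123259552 to 123263021) and 4355 bp after 4 h (123259512 to 123263866), 1.09 times the untreated width. A narrow H3K4me3 peak of 597 bp in the gene at 4 h (123266839 to 123267435) lay beside the place of a 372 bp peak of untreated cells (123266124 to 123266495), which no LPS peak met. H3K27ac over the promoter and the first part of the gene was 12943 bp in untreated cells (123259476 to 123272418) and number 522 by width of 31472. At 1 h it stood as 2 peaks, 3522 bp (123259921 to 123263442) and 4940 bp (123266029 to 123270968), and at 4 h as 1 peak of 12387 bp (123259714 to 123272100). The gene interval was covered by H3K27ac over 59.1%, 39.9% and 57.6% in the same order. The wide untreated domain was thus interrupted at 1 h and whole again at 4 h.

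H3K79me2 differed more in the Irf8 gene. It lay in 2 peaks in untreated cells, 6696 bp (123260294 to 123266989) and 6847 bp (123269836 to 123276682), and in 2 at 1 h, 6794 bp (123260267 to 123267060) and 7071 bp (123269738 to 123276808). At 4 h they were 1 peak of 17650 bp (123260161 to 123277810), 2.64 and 2.58 times the widths of the untreated peaks. Of all untreated H3K79me2 peaks, 21.3% were met at 4 h by a peak at least 2 times as wide. H3K79me2 covered 84.0% of the gene interval at 4 h, against 64.5% in untreated cells. With peaks limited to a −log10 q of at least 5 the sign turned, and the difference in the share of the window covered, 4 h minus untreated, was −8.76 percentage points. H3K36me3 over the gene was 18617 bp in untreated cells (123262022 to 123280638), 18565 bp after 1 h (123262167 to 123280731) and 18819 bp after 4 h (123262055 to 123280873). Among all called peaks, both genes thus had a longer H3K79me2 domain at 4 h, while H3K36me3 over Irf8 kept about its length. Under the q limit this did not hold for H3K79me2 at Irf8, with 0.776% of the window covered at 4 h, against 9.54% in untreated cells.

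**Figure D3:**
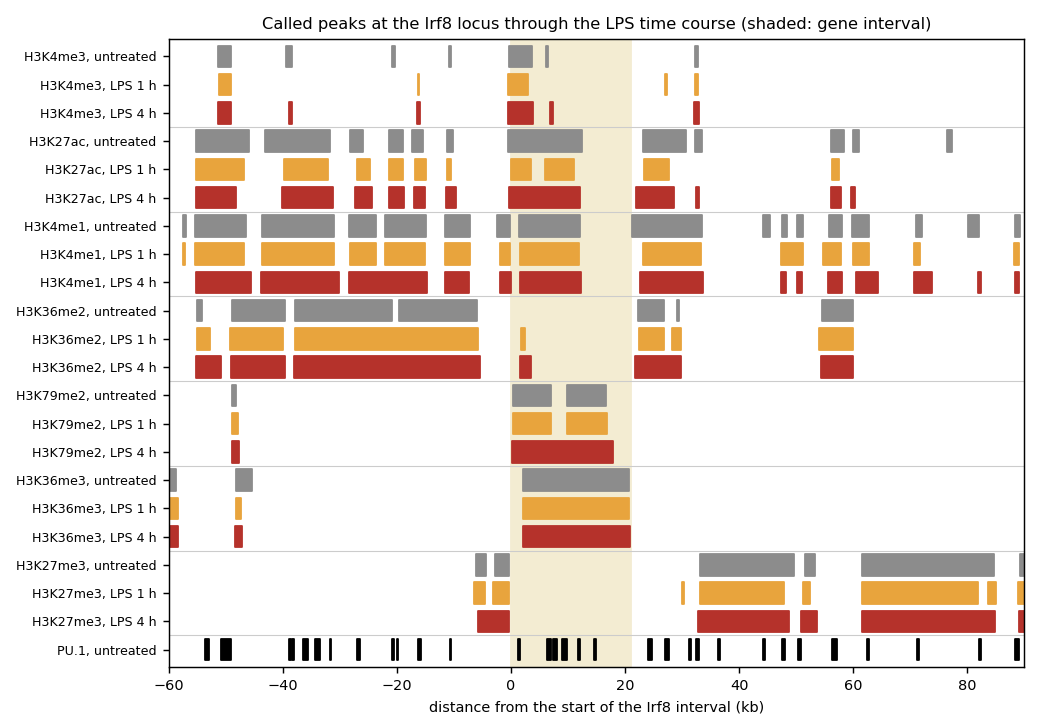
Extent of each called peak (bars) at the Irf8 locus against distance from the start of the gene interval in kb, by mark and time of LPS, with PU.1 of untreated cells in the bottom row. H3K79me2 of the gene was 2 peaks until 1 h and 1 peak of 17650 bp at 4 h, and H3K27me3 blocks lay downstream of the gene at each time.

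Upstream of Irf8, H3K36me2 was laid out in long stretches. It had 2 wide peaks in untreated cells, 16992 bp (123222179 to 123239170) and 13576 bp (123240422 to 123253997), which were 1 peak of 32150 bp after 1 h (123222112 to 123254261) and of 32539 bp after 4 h (123222015 to 123254553). Of all untreated H3K36me2 peaks, 34.2% were met at 1 h and 46.8% at 4 h by a peak at least 2 times as wide. H3K36me2 length in the window at 4 h was 1.20 times that of untreated cells, where the genome ratio was 1.24. In the gene interval it covered 0% (untreated), 3.15% (LPS 1 h) and 8.95% (LPS 4 h), through 1 peak. At 4 h this peak lay inside the promoter peak of H3K4me3. H3K4me1 upstream was widest at 12637 bp in untreated cells (123216324 to 123228960), 12507 bp after 1 h (123216405 to 123228911) and 13763 bp after 4 h (123216099 to 123229861). Unlike the Irf1 start, the Irf8 start had no H3K4me1 in untreated cells, where the mark ended at −0.236 kb and resumed at 1.40 kb.

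Downstream of Irf8, wide H3K27me3 blocks stood on either side of a PU.1-bound element. The widest H3K27me3 peak was 23187 bp in untreated cells (123321546 to 123344732), 20290 bp after 1 h (123321540 to 123341829) and 23349 bp after 4 h (123321503 to 123344851). A second block, from 33.1 kb in untreated cells, was 16509, 14832 and 15956 bp wide in the same order. Between the blocks, an H3K27ac peak at 56.1 kb was 2235 bp in untreated cells, 1180 bp after 1 h and 1829 bp after 4 h, and H3K36me2 there was 5432, 6094 and 5613 bp. That island of active marks was present in untreated cells and at both LPS times.

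The peaks of Irf8 lost at 4 h were at most 1242 bp wide. At 1 h, 4 of 50 peaks were gained and 9 of 55 lost, where 13.2% and 11.7% of all peaks were. At 4 h 3 of 47 were gained and 6 of 55 lost, where 20.1% and 8.75% of all were. The 4 h counts were 8 gained and 10 lost when at least 50% of a peak had to be covered, and 10 gained and 15 lost under the q limit used above. Shares over all peaks were not computed for these settings. Of the H3K4me3 peaks, 3 of 7 were lost at 4 h, at −20.8, −10.9 and 6.12 kb, while 6.55% of all untreated H3K4me3 peaks were lost. They were 372 to 465 bp wide, and the widest was at −10.9 kb (123249073 to 123249537). The gained H3K4me3 peaks, 2 of 6, were of 437 bp at −16.4 kb and the 597 bp one at 6.84 kb, where 9.64% of all were gained. Of H3K27ac peaks, 1 of 12 was lost at 4 h (12.9% of all), 858 bp at 76.4 kb (123336374 to 123337231), and 3 of 12 at 1 h (18.8% of all), of which 2 were met by a 4 h peak. The widest H3K4me1 peak lost at 4 h was 1242 bp at 44.1 kb (123304117 to 123305358), and the H3K36me2 gain was 1880 bp in the gene (123261616 to 123263495).

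Chromatin states, the authors' 27-state summary of the marks in steps of 200 bp, were compared with those of untreated cells. At 4 h, 134 of 200 steps at Irf1 and 214 of 750 at Irf8 were in another state than in untreated cells, or 67.0% and 28.5%, against 12.2% of all steps. At 1 h these were 69 of 200 and 209 of 750 steps, or 34.5% and 27.9%, against 11.0%. A state is described here by the marks that cover more than 50% of its length. Most of the genome is in state 27, where no mark does and H3K27me3 covers 4.38% (untreated), 2.96% (LPS 1 h) and 8.52% (LPS 4 h) of the length. Of steps outside state 27 in either list, 69.1% at Irf1 and 30.7% at Irf8 were in another state at 4 h, against 36.0% over the genome. At 1 h these shares were 36.1% and 29.5%, against 31.3%. Irf8 was thus near the share of marked chromatin in general at both times, and Irf1 was above it at 4 h.

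Inside the Irf1 gene interval, state 10 (H3K4me3, H3K27ac and H3K79me2) held 16 of 45 steps at 4 h and 1 in untreated cells. State 14 (H3K27ac, H3K4me1 and H3K36me3) held 6 steps at 4 h and 22 in untreated cells. Over the Irf1 window the most frequent move was from state 26 to state 1, both led by H3K36me2, in 15 steps, followed by state 15 (H3K36me3) to state 14 in 10. Next were state 16 (H3K4me1) to state 3 (H3K27ac, H3K4me1 and H3K36me2) and state 27 to state 17 (H3K27ac, H3K4me1 and H3K36me2 in the 4 h segmentation), in 9 steps each. At Irf8 the move from state 26 to 1 was also the most frequent, in 37 steps at 4 h and 33 at 1 h. Genome-wide, state 1 likewise took up more length after LPS, 4.75% at the later time and 3.84% at the earlier one, from 2.48%. State 26 took up less, 4.66% and 4.61% in that order, from 5.50%. How often the move itself occurred over the genome was not computed, so it is not shown to be particular to these loci. State changes at Irf8 lay upstream of the gene more than in it, with 44.7% of upstream steps and 17.1% of gene steps in another state at 4 h. In untreated cells state 19 (H3K27me3) held 26.0% of the Irf8 window and 5.50% of the Irf1 window. In the 18-state segmentation of untreated cells, state 18, with none of the marks over more than 50% of its length, held 38.9% of the Irf8 window and 23.0% of the Irf1 window. State 18 is not free of marks, as H3K27me3 covered 22.5% of its length. No state of that segmentation had H3K27me3 over more than 50%, so it does not set this mark apart.

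PU.1, the lineage-determining factor of macrophages and a partner of Irf8, was mapped in untreated cells and was dense at both loci. There were 11 PU.1 peaks at Irf1 and 31 at Irf8, or 27.5 and 20.7 per 100 kb, against 3.77 per 100 kb over the genome. Fold enrichment, the authors' value over background, was 2.78 to 39.6 at Irf1 with a median of 7.32. At Irf8 it was 2.76 to 41.6 with a median of 8.24, and the median of all 99565 PU.1 peaks was 6.33. Both windows thus held more PU.1 peaks per length than the genome, at a median strength above its median.

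The strongest PU.1 peak at Irf1 had a fold enrichment of 39.6 and lay at 24.7 kb (53607253 to 53609289), number 1258 in the whole list, under H3K4me3, H3K27ac and H3K4me1 at each time. The second, at 27.5, lay 3.27 kb into the gene (53585976 to 53586561). It was outside H3K27ac and H3K4me3 in untreated cells and at 1 h, and inside both at 4 h, when H3K4me1 no longer met it. It lay in state 14 before LPS, in state 15 at 1 h and in state 10 at 4 h. The next were 14.0 at 13.9 kb (53596596 to 53597387), 11.1 at −5.84 kb (53576252 to 53577918) and 8.59 at 5.41 kb (53588188 to 53588630). The last of these met H3K4me3 and H3K79me2 at 4 h and not before. PU.1 peaks inside untreated H3K4me3 were those at 24.7 and −5.84 kb and 3 around the start, with folds of 7.32 at −0.316 kb (53582127 to 53582873), 4.87 at 0.407 kb (53583244 to 53583585) and 6.75 at 2.13 kb (53584894 to 53585334). None of the 3 at the start was among the 5 strongest.

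At Irf8 the 5 strongest PU.1 peaks were spread over the window. The strongest was 41.6 at 27.4 kb (123286981 to 123287756), number 926 in the list, followed by 38.9 at 56.7 kb (123316280 to 123317099), number 1381, in the island between the H3K27me3 blocks. The others were 33.0 at −16.0 kb (123243688 to 123244302), 29.1 at 6.63 kb in the gene (123266291 to 123267052) and 26.1 at −49.8 kb (123209091 to 123210825). All 5 lay inside H3K27ac and H3K4me1 at each time. The peak at −16.0 kb was outside H3K4me3 in untreated cells and inside it at 1 h and 4 h, while that at 27.4 kb met H3K4me3 at 1 h and not at 4 h or in untreated cells. Inside untreated H3K4me3 were 7 PU.1 peaks. Those at −49.8 and 6.63 kb are given above. The other 5 had folds of 2.93 at −38.9 kb (123221016 to 123221344), 9.50 at −20.7 kb (123239043 to 123239521), 3.69 at −10.6 kb (123249275 to 123249546), 7.84 at 1.43 kb (123261189 to 123261650) and 6.98 at 32.7 kb (123292483 to 123292947). As at Irf1, the 5 strongest PU.1 peaks were away from the start.

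**Figure D4:**
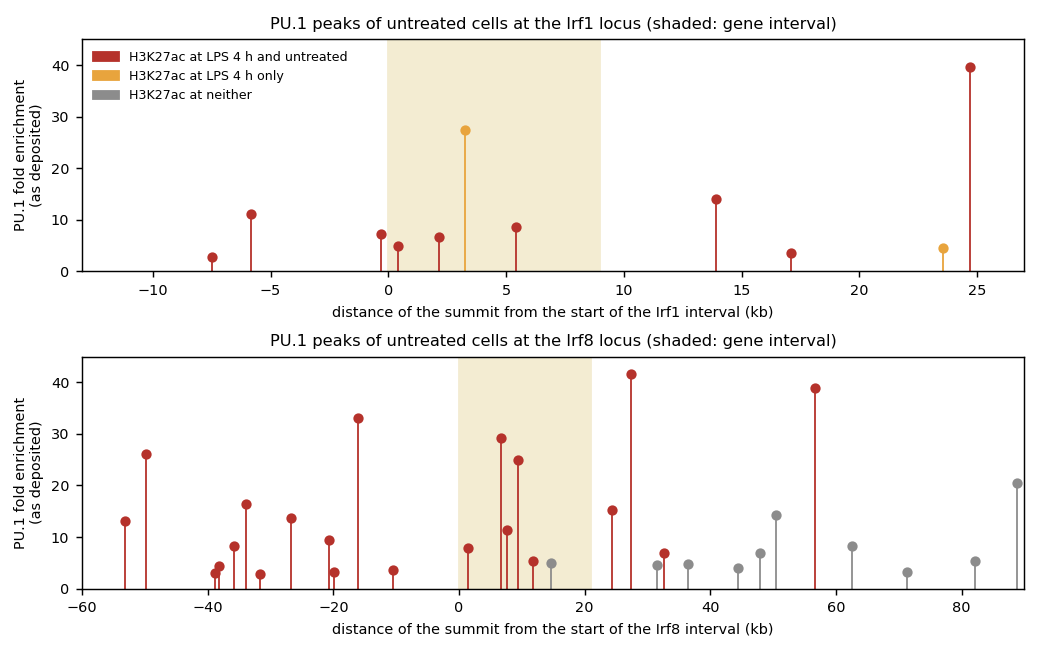
Fold enrichment of each PU.1 peak of untreated cells, as deposited, against the distance of its summit from the start of the gene interval in kb, coloured by whether it met H3K27ac in untreated cells and at 4 h of LPS. The second strongest at Irf1, 27.5 at 3.27 kb, met H3K27ac at 4 h and not before, and the 10 at Irf8 outside H3K27ac lay within or downstream of the gene.

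Most PU.1 peaks of both loci lay in H3K27ac. At Irf1, 9 of 11 did before LPS, 9 did at 1 h and 11 at 4 h, against 45.2%, 40.4% and 45.8% of all PU.1 peaks. At Irf8 the counts were 21, 18 and 21 of 31. In untreated cells H3K27ac covered 41.3% of the Irf1 window and 35.9% of the Irf8 window, against 3.17% of the genome. Within Irf8, the 21 peaks inside untreated H3K27ac had a median fold of 11.4 and the 10 outside it 5.19, and over the genome these medians were 8.41 and 5.36. The strongest of the 10 outside had folds of 20.5 at 88.8 kb and 14.2 at 50.5 kb. At Irf1 the 2 peaks outside had 27.5 and 4.44, and the 9 inside a median of 7.32. H3K27me3 met 6, 6 and 9 of the 31 PU.1 peaks at Irf8 before LPS, at 1 h and at 4 h, against 10.8%, 10.3% and 11.8% of all. In the same order H3K27me3 covered 31.0%, 29.5% and 32.4% of the Irf8 window, against 13.7%, 14.4% and 16.1% of the genome. PU.1 was not mapped after LPS, so its own response is not analysed here.

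Flavopiridol before LPS asks which H3K4me1 and H3K36me2 intervals of the LPS response appear when transcription elongation is inhibited. At Irf1, the upstream H3K36me2 and the gap in promoter H3K4me1 that marked 4 h of LPS were both absent with the drug. At Irf8 the joined upstream H3K36me2 stretch was in pieces with the drug, and H3K4me1 ran across the start. The flavopiridol libraries are numbered in a later block of samples than the untreated and LPS libraries of the same marks. Drug and block thus cannot be told apart where lists with and without the drug are compared. The flavopiridol lists held few peaks of high deposited confidence. A −log10 q of at least 5 was reached by 4.02% of H3K4me1 peaks after flavopiridol then LPS and 53.0% after LPS, and by 12.8% after flavopiridol alone and 54.4% in untreated cells. For H3K36me2 these shares were 0.0390% and 32.5%, and 0.197% and 9.02%. Widths of overlapping peaks also agreed less: Spearman's rho across peaks was 0.522 for H3K4me1 and 0.363 for H3K36me2 between flavopiridol then LPS and LPS. It was 0.605 and 0.543 between flavopiridol and untreated cells, where the LPS lists against untreated cells gave 0.744 to 0.958. The part of these differences between the lists in the results was not tested. Limited to such peaks, flavopiridol minus untreated for H3K4me1 was −9.69 percentage points at Irf1 and −47.7 at Irf8, and no H3K36me2 difference could be seen at Irf1, where each was 0.

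H3K4me1 covered 57.6% of the Irf1 window after flavopiridol then LPS, against 65.0% after LPS for 4 h, and 64.4% after flavopiridol alone, against 59.2% in untreated cells. In the gene interval the order was the other way for LPS, with 73.8% after flavopiridol then LPS, against 43.9% after LPS. A peak of 8513 bp crossed the promoter after flavopiridol then LPS (53581129 to 53589641), close to the 8096 bp one after flavopiridol alone (53581775 to 53589870) and the 8085 bp one of untreated cells. After flavopiridol alone the widest was upstream, with 8765 bp (53571750 to 53580514). Window length after flavopiridol then LPS was 0.886 times that after LPS at Irf1 and 0.866 times at Irf8, where the genome ratio was 0.585. The H3K4me1 length at both loci was thus nearer to that after LPS than the length over the genome was.

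H3K36me2 covered 24.7% of the Irf1 window after flavopiridol then LPS, against 45.6% after LPS, 0.542 times the length where the genome ratio was 0.659. After flavopiridol alone it covered 38.0%, against 29.0% in untreated cells. Upstream of Irf1 it was at 0% after flavopiridol then LPS and after flavopiridol alone. In the gene interval it covered 35.2% after flavopiridol alone, against 0% in untreated cells, through peaks of 2049 bp (53584666 to 53586714) and 769 bp and part of one of 4360 bp. After flavopiridol then LPS the gene interval was at 0%, as after LPS. The widest H3K36me2 peak was 4780 bp after flavopiridol then LPS (53597680 to 53602459) and 5352 bp after flavopiridol alone (53597522 to 53602873).

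**Figure D5:**
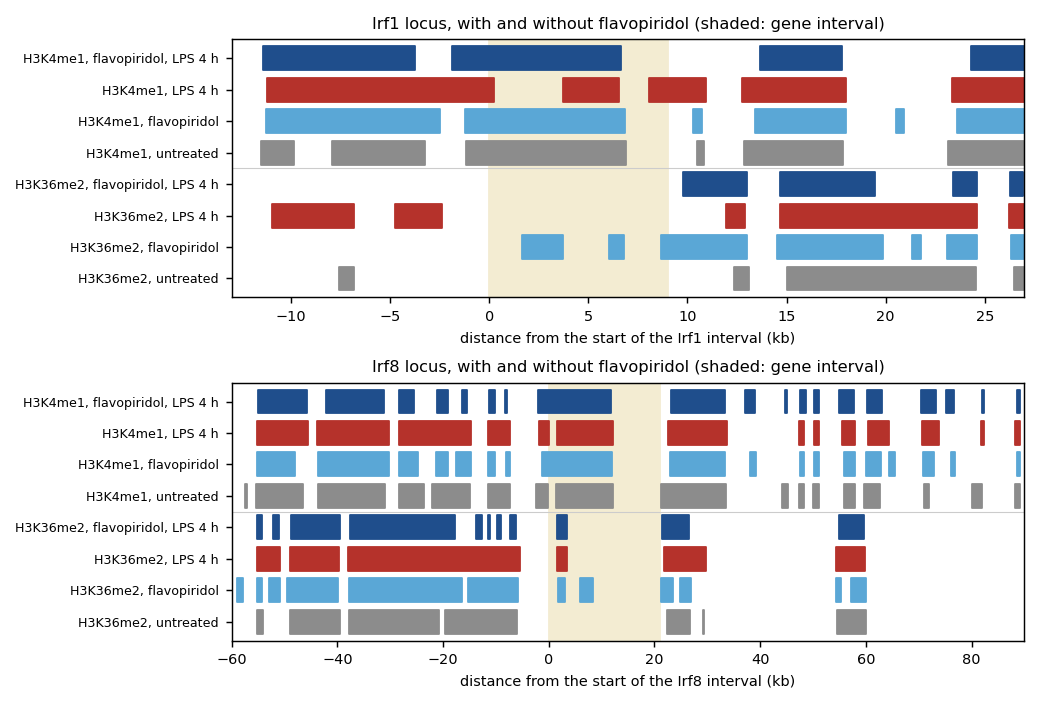
Extent of each called H3K4me1 and H3K36me2 peak (bars) at both loci against distance from the start of the gene interval in kb, with rows for flavopiridol then LPS 4 h, LPS 4 h, flavopiridol alone and untreated cells. The H3K4me1 peak over the Irf1 start was 8513 bp after flavopiridol then LPS, and no H3K36me2 peak lay upstream of Irf1 with the drug.

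At Irf8, H3K4me1 covered 44.8% after flavopiridol then LPS, against 51.8% after LPS, and 45.3% after flavopiridol alone, against 50.5% in untreated cells. A single H3K4me1 peak ran across the start in both flavopiridol conditions, 13935 bp after flavopiridol then LPS (123257933 to 123271867) and 13350 bp after flavopiridol alone (123258650 to 123271999). Without the drug the start had a gap at each time. In the gene interval, unlike the window, H3K4me1 thus covered more with the drug, 56.5% after flavopiridol then LPS, against 50.8% after LPS. The widest peak after flavopiridol alone was 13469 bp upstream (123216340 to 123229808). H3K36me2 covered 31.1% after flavopiridol then LPS, against 41.2% after LPS, and 37.6% after flavopiridol alone, against 34.2% in untreated cells. The 32539 bp stretch of LPS was met by a peak of 19915 bp (123222330 to 123242244) and 4 of 368 to 1071 bp after flavopiridol then LPS. After flavopiridol alone the widest was 21319 bp (123222176 to 123243494). In the gene interval H3K36me2 covered 9.40% after flavopiridol then LPS, against 8.95% after LPS, and 18.2% after flavopiridol alone, against 0% in untreated cells.

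Whole peaks gained and lost with the drug were counted in the same way. After flavopiridol then LPS, 3 of 10 LPS peaks of the 2 marks were lost at Irf1 and 0 of 20 at Irf8, where 33.8% of all were. The count at Irf1 was near the share over all peaks and that at Irf8 below it. A wide peak counts as kept at any overlap, as did the joined H3K36me2 stretch of Irf8 that was in pieces with the drug. Widths were not matched, so the count at Irf8 does not show that its peaks were unchanged. The gained peaks were 0 of 8 and 3 of 30, where 11.8% of all were. The 3 lost at Irf1 were both upstream H3K36me2 peaks of LPS and an H3K4me1 peak of 2844 bp (53591078 to 53593921). Flavopiridol alone gained 3 of 13 at Irf1 and 7 of 30 at Irf8 over untreated cells (20.9% of all) and lost 1 of 10 and 4 of 24 (19.7%). Relative to flavopiridol alone, flavopiridol then LPS gained 0 of 8 and 2 of 30 (10.5%) and lost 5 of 13 and 3 of 30 (25.3%).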

How the data were processed

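The submitters' processing notes name Bowtie 1.0.1, MACS2 and genome build mm9. Peak call settings, controls and the segmentation tool were not given in the sources used here. Depth is unknown. Histone files are in MACS2's broad format and the PU.1 file in its narrow format, which gives each summit. The score column, as deposited, equals 10 times the −log10 q, cut to a whole number, and was not used. The fold of each peak is a ratio over background as the authors deposited it, and the −log10 q is also the authors' deposited value. Of the 29 samples, the 3 inputs have no list used here.

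Coverage, widths and overlaps were computed with Python 3.11.15 and numpy 2.4.6 on chromosomes 1 to 19 and X, after tests on simulated intervals. Overlap means at least 1 bp. Histone intervals were used without their fold values, and the deposited −log10 q served only as a limit where stated. The share of peaks that meets this limit differs between lists. Over 14 LPS lists set against untreated ones, fold values of overlapping peaks correlated at a Spearman rho of 0.0483 to 0.415 and widths at 0.744 to 0.958. Over the 6 flavopiridol comparisons widths correlated at 0.363 to 0.713, so widths there are less comparable. Each of the 27 state numbers was closest in mark profile to itself in both LPS segmentations. Distances run from the approximate start of each gene interval. PU.1 intervals with several summits count once, with the highest fold. No annotation of mm9 was used, so RefSeq promoters (GRCm38.p6) are not placed on the peaks.

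The members and lists were chosen with earlier results of these data known. Named were every H3K4me3, H3K27ac and H3K79me2 peak that meets a gene interval, the widest peak of the other marks per window and condition, the 5 strongest PU.1 peaks, those inside H3K4me3, and the widest gain and loss at 4 h. Other peaks, the width ratios and the shares outside state 27 were chosen after the values were seen. A further promoter motif is not reported here.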

Additional observations from a re-analysis of the deposited data

Results flagged for a closer look

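The effect of 4 h of LPS on coverage had opposite signs with and without flavopiridol for both marks at both loci, each being a difference between single libraries that was not tested. For H3K4me1 at Irf1 the change was −6.80 percentage points after flavopiridol and 5.77 without it, and at Irf8 it was −0.457 and 1.33. For H3K36me2 at Irf1 it was −13.3 percentage points after flavopiridol and 16.6 without it, and at Irf8 −6.55 and 6.94. The genome-wide lists moved the same way: the ratio of length after flavopiridol then LPS to that after flavopiridol alone was 0.816 for H3K4me1 and 0.755 for H3K36me2, against 1.04 and 1.24 for LPS over untreated cells. The part of list quality in these values was not tested. The flavopiridol libraries belong to the later block of sample numbers, so drug and block cannot be told apart in this contrast.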

How the results depend on the processing

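No paired analysis was possible because each mark and condition has 1 library. Of 200 alternative values, 20 turned in sign, 44 moved past a tolerance and 136 stayed within it. The 136 include values from merging peaks within 1 kb, which left each LPS difference in coverage unchanged. The tolerance was the half-width of the 95% Wilson interval of the covered share, taken over 200 bp steps, or 1.5 times for counts, so small differences could move several-fold within it. The cause was not tested unless the setting removes nearly all peaks. A −log10 q of at least 5 left the flavopiridol lists almost empty at both loci. Values are percentage points of window covered. Flavopiridol minus untreated became −9.69 (Irf1) and −47.7 (Irf8) for H3K4me1, and 0 and −3.62 for H3K36me2. Flavopiridol then LPS minus LPS became −48.5 for H3K4me1 at Irf8, and 0 (Irf1) and −37.4 (Irf8) for H3K36me2. Flavopiridol then LPS minus flavopiridol became 0 for H3K4me1 at Irf1 and for H3K36me2 at both. That threshold also turned LPS minus untreated at Irf1 for H3K4me1 (−9.69 at 1 h, −0.605 at 4 h), H3K79me2 at 1 h (7.33) and H3K36me3 at 4 h (−22.1). At Irf8 it turned H3K79me2 (−4.31 at 1 h, −8.76 at 4 h), H3K36me3 (0.785) and H3K27me3 (−13.0) at 4 h. H3K36me2 at Irf8 became 30.0 at 1 h and 33.8 at 4 h, and at 1 h H3K4me1 became −11.0 and H3K27me3 −16.6. With it 3 marks covered more at 4 h at Irf1, where H3K36me2 and H3K27me3 had no peak to compare, and 1 at 1 h at Irf8.

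The gene interval with 5 kb on each side turned H3K4me3 (−1.74) and H3K27ac (−0.0368) at 1 h at Irf1. At Irf8 it turned H3K4me3 (1.87), H3K27ac (2.05), H3K4me1 (−5.74) and H3K36me3 (0.652) at 4 h, and H3K27me3 at 1 h (0.526). Flavopiridol then LPS minus LPS became 2.95 for H3K4me1 and 1.45 for H3K36me2 at Irf8 and −0.842 for H3K36me2 at Irf1. Minus flavopiridol it became 1.53 for H3K4me1 at Irf8, and −20.8 (Irf1) and −2.41 (Irf8) for H3K36me2. Flavopiridol minus untreated became 33.7 (Irf1) and 11.6 (Irf8) for H3K36me2. There 3 marks covered more at 1 h at Irf1, and steps in another state at 4 h were 77.9% at Irf1 and 23.9% at Irf8. With segments of at least 400 bp these were 24.2% at 1 h and 24.8% at 4 h at Irf8.

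Where at least 50% of a peak must be covered, gains were 4 at 1 h and 6 at 4 h at Irf1, and 7 and 8 at Irf8, with 10 lost at 4 h. With the q threshold 2 were lost at 1 h at Irf1, and 10 gained and 15 lost at 4 h at Irf8. No share over all peaks was computed for these counts. Merging peaks within 1 kb left each LPS difference in coverage unchanged, so it could turn no sign and is no check of them. Using peaks of at least 1 kb turned no sign, and the PU.1 counts stayed within 1.5 times of 11 and 31.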
